A study of Mus musculus with 4 samples.

Results

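The promoters of 541 mouse long intergenic non-coding RNA (lincRNA) genes were examined in the methylomes of colonic intestinal stem cells (ISCs) and their differentiated progeny. A promoter was the window of 500 bp on either side of the transcription start site (TSS), taken at the 5′ end of the gene record in GENCODE M1 on the mm9 build. Of 1232 autosomal genes with the type lincRNA in that annotation, 566 started at least 2 kb from every protein-coding TSS and 561 of these had at least 3 CpGs in the window. The 541 promoters had at least 20 methylation calls in each library, a call being 1 read of 1 CpG. They are among 31984 autosomal promoter windows that met the same minimum of CpGs and calls, of which 20138 belonged to protein-coding genes. The requirement of 20 calls left out 20 genes, the closest being Gm13644 with 17 calls in its shallowest library, whereas Gm17392 with 20 was kept. The rule used no methylation value, but it was chosen with earlier results of these data known.

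The cells came from mice with an Lgr5-EGFP-CreER knock-in reporter crossed with wild-type C57 animals. Litters were pooled at postnatal day 0 (P0) and reporter-positive offspring at postnatal day 21 (P21), so carriage of the reporter by every animal is stated for P21 alone, and at P0 the EGFP-negative cells may include cells of animals without the reporter. ISCs were sorted from the colon as EGFP-positive cells, and differentiated epithelial cells as EpCAM-positive, EGFP-negative cells, at both ages. Each of the 4 groups, ISC P0, ISC P21, differentiated P0 and differentiated P21, was 1 whole-genome bisulfite sequencing library from pooled animals, with no replicate. Every test below therefore compares 2 libraries, and the spread between animals cannot be read from it. The differentiated fraction is what remains after the reporter gate and holds all other EpCAM-positive cells.

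The median depth was 15 to 23 calls per CpG, and the median lincRNA promoter held 409 calls in ISC P0, 696 in differentiated P0, 424 in ISC P21 and 565 in differentiated P21. Promoters of 10 epithelial genes, Epcam among them, had a median level of 0.507% to 1.76% in the 4 libraries, while promoters of 7 blood cell genes had a median of 72.5% to 79.2%. Krt20 was the epithelial exception at 50% to 56.2%, and Lcp1 the blood exception at 0.769% to 1.39%. Promoters of 8 stromal and endothelial genes had a median of 58.9% to 64.1%, and 3 of them were low in every library, Dcn at 3.51% to 10.8%, Col1a2 at 10.9% to 18.3% and Des at 15.3% to 19.3%. The part of other cells in the results was not tested.

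LincRNAs are transcripts with no long open reading frame, usually capped, spliced and of low abundance. Several act in the nucleus at or near the gene from which they are made, some host small RNAs in their introns, and a few belong to imprinted domains whose alleles carry different methylation. As at protein-coding genes, a promoter dense in CpGs is commonly kept free of methylation, and a CpG-poor promoter is commonly methylated. In the intestinal epithelium, Lgr5 marks the dividing cells at the crypt base from which the other epithelial cells arise.

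The annotation name is not a full description of these loci. The start sites of 192 of the 541 genes lay inside the body of a protein-coding gene, on the opposite strand in 179 cases and on the same strand in 13. A further check against RefSeq names (GRCm38.p6, names only) matched 268 genes, of which RefSeq types 233 as lncRNA, 16 as protein-coding and 15 as pseudogenes. Most of the genes carry only a predicted-gene or cDNA-clone name, 334 beginning with Gm and 166 ending in Rik. In 8 pairs the windows of 2 members overlapped, as for Gm13662 and Gm17250, whose start sites are 237 bp apart on opposite strands, so their values are not independent.

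The stretches below show what the age-related differences look like in sequence. They are the 200 bases with the most CpGs in each window, read from mm9 on the strand of the gene, with the CpGs in capitals. The first 3 come from promoters called with higher methylation at P21 in both populations. Gm16880 (chr1:138592751-138592950) holds 12 CpGs across its start site. Gm16661 (chr14:120788306-120788505, minus strand) holds 20 CpGs upstream of a start site that lies in an exon of Mbnl2. 2610020F03Rik (chr16:21908779-21908978, minus strand) holds 8 CpGs around a start site that lies in an intron of Map3k13.
Gm16880: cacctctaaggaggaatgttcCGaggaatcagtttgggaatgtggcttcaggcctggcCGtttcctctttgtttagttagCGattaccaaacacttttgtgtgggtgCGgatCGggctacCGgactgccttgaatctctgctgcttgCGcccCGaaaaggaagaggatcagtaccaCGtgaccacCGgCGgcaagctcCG
Gm16661: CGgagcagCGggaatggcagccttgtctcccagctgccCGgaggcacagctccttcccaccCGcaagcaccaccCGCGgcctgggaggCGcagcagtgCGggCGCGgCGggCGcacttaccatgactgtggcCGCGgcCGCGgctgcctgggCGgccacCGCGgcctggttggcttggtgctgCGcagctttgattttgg
2610020F03Rik: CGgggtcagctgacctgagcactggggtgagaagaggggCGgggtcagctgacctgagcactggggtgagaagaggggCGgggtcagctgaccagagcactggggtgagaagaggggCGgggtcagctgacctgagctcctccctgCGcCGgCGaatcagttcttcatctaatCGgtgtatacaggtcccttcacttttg

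In the same order the levels of these stretches in ISC P0 and ISC P21 were 18.5% and 44.9%, 48.3% and 76.9%, and 29.7% and 76.4%. In differentiated P0 and P21 they were 11.4% and 36.1%, 49.9% and 81.4%, and 43.3% and 57.1%. The 2610020F03Rik stretch matches itself at 114 of 161 bases when shifted by 39 bases, against 30.6% to 41.6% of bases at the best shift in the other stretches printed here. How its 89 to 127 calls per library were placed among the similar bases was not tested.

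The next 3 stretches come from promoters called with lower methylation at P21 in both populations. Gm13684 (chr2:83599522-83599721, minus strand) lies downstream of a start site in an intron of the integrin gene Itgav. Gm17603 (chr12:52988638-52988837) lies upstream of a start site in an exon of Heatr5a. Gm17272 (chr9:20416486-20416685, minus strand) lies downstream of a start site in an intron of a processed transcript. These 3 stretches hold 6, 4 and 5 CpGs in 200 bases, fewer than any of the first 3.
Gm13684: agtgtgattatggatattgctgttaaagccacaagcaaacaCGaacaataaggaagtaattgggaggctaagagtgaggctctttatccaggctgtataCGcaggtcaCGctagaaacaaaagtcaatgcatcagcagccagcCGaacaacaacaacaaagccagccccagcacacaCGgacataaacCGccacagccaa
Gm17603: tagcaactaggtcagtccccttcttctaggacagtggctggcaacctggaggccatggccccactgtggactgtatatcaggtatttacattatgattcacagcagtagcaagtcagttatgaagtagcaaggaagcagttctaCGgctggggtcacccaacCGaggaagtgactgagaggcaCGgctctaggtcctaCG
Gm17272: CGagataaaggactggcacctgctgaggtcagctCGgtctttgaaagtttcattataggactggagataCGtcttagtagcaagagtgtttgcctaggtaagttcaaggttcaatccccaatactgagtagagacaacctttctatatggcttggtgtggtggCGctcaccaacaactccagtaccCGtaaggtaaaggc

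Their levels in ISC P0 and ISC P21 were 55.3% and 29.3% in Gm13684, 63.0% and 38% in Gm17603, and 54.3% and 20.3% in Gm17272. The differentiated libraries had 48.3% at P0 and 9.32% at P21 in Gm13684, 64.5% and 27.8% in Gm17603, and 42.2% and 24.8% in Gm17272. All 3 stretches were lower at P21 in each population.

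The last 2 are from promoters that differed most between ISCs and differentiated cells, A430010J10Rik (chr6:67065167-67065366) and Gm17034 (chr6:82714236-82714435). They are shown because the levels of these stretches and of the whole windows can be set side by side.
A430010J10Rik: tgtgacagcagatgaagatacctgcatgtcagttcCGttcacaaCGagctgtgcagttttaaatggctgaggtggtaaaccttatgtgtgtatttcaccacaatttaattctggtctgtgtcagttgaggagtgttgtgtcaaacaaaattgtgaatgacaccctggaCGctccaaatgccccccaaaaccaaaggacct
Gm17034: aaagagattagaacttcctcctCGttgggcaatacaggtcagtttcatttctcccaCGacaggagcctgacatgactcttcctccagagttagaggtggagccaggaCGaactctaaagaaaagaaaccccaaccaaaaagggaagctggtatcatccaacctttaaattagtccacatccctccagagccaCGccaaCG

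The A430010J10Rik stretch was at 81.2% in ISC P0, 88.9% in differentiated P0, 100% in ISC P21 and 86.7% in differentiated P21, on only 9 to 38 calls. The Gm17034 stretch, which spans the start site, stayed between 5.19% and 15.6%. At P21 the A430010J10Rik stretch was lower in differentiated cells, as the window was. The window difference was -26.8 points, or -12.5 with each CpG weighted alike. The stretch held 38 calls in ISC P21 and 15 in differentiated P21, so the calls of the window fall differently in these libraries. From P0 to P21 in differentiated cells this stretch went from 88.9% to 86.7%, while its window changed by -37.0 points. The Gm17034 stretch was at 5.19% in ISC P0 and 9.77% in differentiated P0, while its window differed by 21.9 points.

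As a group, the lincRNA promoters had intermediate methylation on average and were far from uniform. Their mean level was 45.6% in ISC P0, 45.3% in differentiated P0, 46.3% in ISC P21 and 45.6% in differentiated P21, with SDs over the 541 promoters of 36.5 to 36.8 percentage points (points). The mean of protein-coding promoters was 27.3%, 26.8%, 27.2% and 26.5% in the same order. In all 4 libraries 156 lincRNA promoters (28.8%) were under 10%, 182 (33.6%) were over 70%, and 62 (11.5%) stayed between 30% and 70%. Protein-coding promoters were under 10% in 58.0% of cases, over 70% in 19.7% and between in 6.34%.

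The level differed by the number of CpGs in the window. The 93 promoters with 3 to 9 CpGs had a median level of 81.5% in ISC P0 and the 183 with 10 to 19 CpGs a median of 78.1%. Across the 147 with 20 to 39 CpGs the median was 18.6%, and across the 118 with 40 or more it was 1.65%. In differentiated P21 the medians were 83.5%, 79.0%, 16.1% and 1.59%. These class limits were set after values had been seen.

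**Figure D1:**
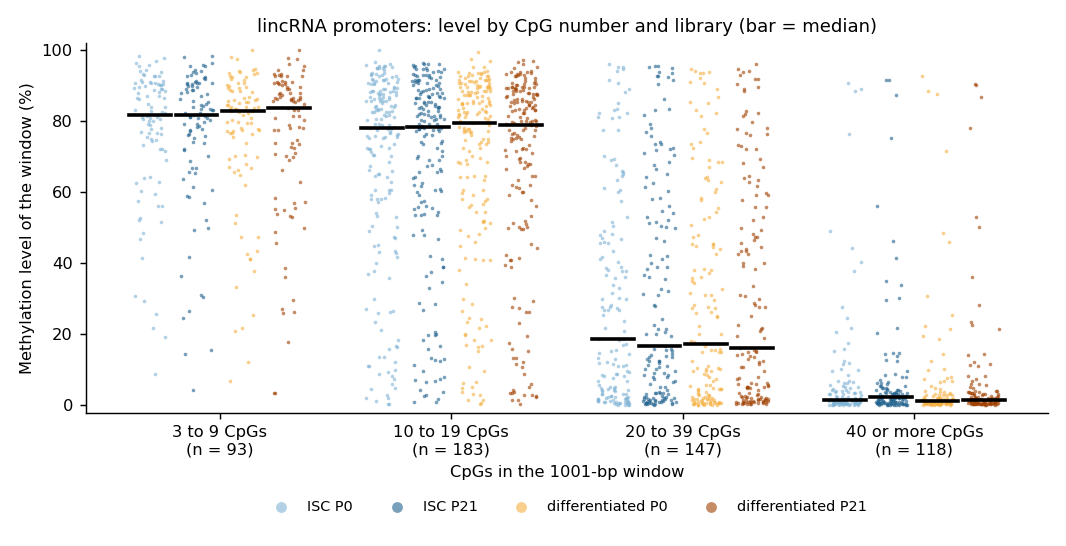
Methylation level of each lincRNA promoter (vertical axis, percent) by number of CpGs in the window (horizontal axis) and library (colour), each point being 1 promoter and each bar a class median. The ISC P0 medians are 81.5%, 78.1%, 18.6% and 1.65% from the class with fewest to the class with most CpGs, and the class of 20 to 39 CpGs is spread over nearly the whole range.

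Promoters of like CpG number were also compared. With 40 or more CpGs, 81.4% of lincRNA promoters and 93.1% of protein-coding promoters were under 10% in all 4 libraries, and 85.1% of promoters of processed transcripts, another non-coding gene type of the annotation. With 20 to 39 CpGs the shares were 33.3% and 39.8%, and a level between 30% and 70% in all 4 libraries was held by 18.4% of the lincRNA promoters against 8.66% of the coding promoters, 16.3% of promoters of the type processed_transcript and 8.98% of all windows. With fewer CpGs the order was the other way, with 13.7% of lincRNA and 18.7% of coding promoters between 30% and 70% at 10 to 19 CpGs, and 8.60% and 12.9% at 3 to 9 CpGs. The lincRNA promoters were poorer in CpGs, with a median of 19 per window against 46 at coding genes, and 148 (27.4%) held a 500-bp stretch with at least 25 CpGs against 59.4% of coding promoters.

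LincRNA genes that start within 2 kb of a protein-coding TSS, which were not among the 541, differed in the same measures. Of 666 such windows 79.3% were under 10% in all 4 libraries and 2.70% lay between 30% and 70%, with a median of 58 CpGs. Among the 541, the 198 windows that overlapped a protein-coding gene had a median of 78.4% in ISC P0 and 15 CpGs. The 343 windows outside coding genes had a median of 21.1% and 23 CpGs.

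The extremes show the range of these genes. Gm17242, Gm17494 and 9430091E24Rik, with 141, 140 and 131 CpGs the richest windows, were between 0 and 0.824% in every library. In the class of 40 or more CpGs, 4 windows were over 70% in all libraries, among them Gm16599 with 81 CpGs at 88.4% to 91.6% and Gm16750 with 53 CpGs at 86.8% to 88.5%. At the other end, Gm17439 was the 1 promoter with fewer than 10 CpGs that stayed under 10% throughout, at 3.57% to 8.75%. Gm16599, Gm16750 and Gm17439 were picked after their values had been seen.

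Around the start site the level dipped, and the depth of the dip followed the CpG number. In ISC P0 the mean over the 200 bases after the start was 5.58% for windows with 40 or more CpGs, 28.5% for 20 to 39 CpGs and 68.6% for fewer than 20, where the lowest bin was the one before the start at 65.4%. At 4800 to 5000 bp upstream the means were 63.4%, 66.0% and 76.0%. Coding promoters of the first class were lower at the start, at 1.41%, and higher 5 kb upstream, at 74.1%. Among 159 promoters of 10 to 19 CpGs with at least 3 CpGs on each side of the start, 35 were over 15 points higher downstream than upstream in ISC P0 and 30 were over 15 points lower (22.0% and 18.9%, against 19.9% and 13.6% of all windows of that class). The counts were 33 and 20 in ISC P21, 34 and 26 in differentiated P0, and 32 and 24 in differentiated P21. With 40 or more CpGs the order was the other way, with 5 promoters higher downstream and 15 lower in ISC P0, and so it was for all windows (1.65% and 8.46%).

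**Figure D2:**
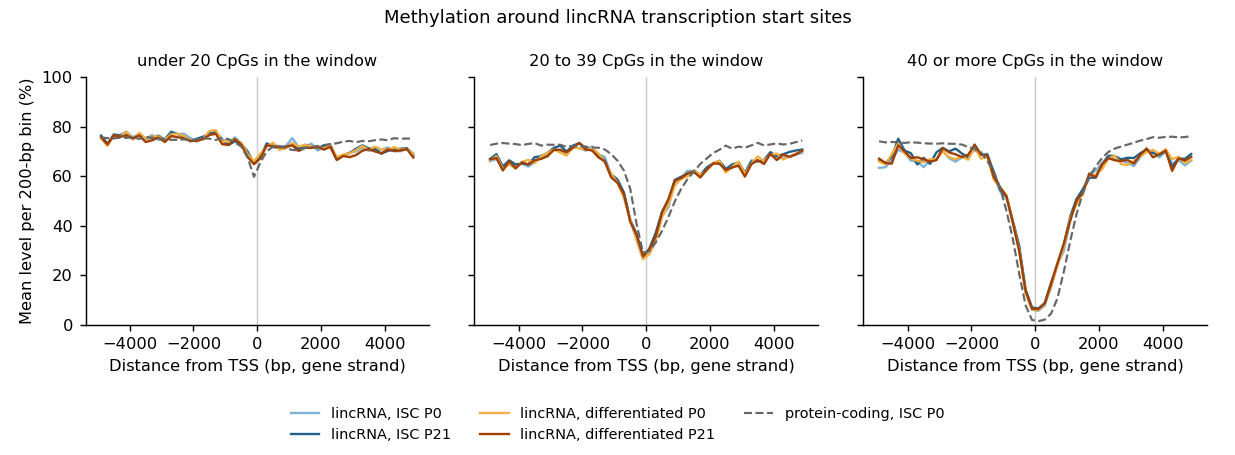
Mean methylation level per 200-bp bin (vertical axis, percent) against distance from the TSS on the gene strand (horizontal axis, bp) for lincRNA promoters in the 4 libraries (solid lines) and protein-coding promoters in ISC P0 (dashed), in 3 classes of CpG number. The 4 libraries overlie each other, and the dip at the start is deepest with 40 or more CpGs (5.58% in the first bin downstream in ISC P0) and shallowest below 20 CpGs (68.6%).

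Sequence words of known promoter elements were counted in the windows on both strands, with no position required. GGGCGG, the core of a GC box, occurred in 234 of the 541 (43.3%, against 49.1% of all 31984 windows of the same length), and 52.6% of these were under 10% in all libraries against 10.7% of the rest. In all windows these shares were 74.1% with and 9.15% without the word. Among lincRNA promoters of 20 to 39 CpGs, where CpG number differs less, the shares were 39.1% with and 25% without the word. For all windows of that class they were 40.6% and 18.1%. TATAAA was found in 205 promoters (37.9%, against 35.2% of all windows) and CCAAT in 382 (70.6%, against 71.6%). TGACGTCA was found in 18 promoters (3.33%, against 2.62%), CCGGAAGT in 17 (3.14%, against 5.44%) and TCGCGA in 12 (2.22%, against 5.92%). CACGTG occurred in 110 promoters (20.3%, against 15.7%) and CATGCGC in 32 (5.91%, against 7.38%). Words that overlap each other were counted separately, and a match is not a bound site.

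Well-studied lincRNAs ranged from nearly unmethylated to over 90% methylated. From lists of imprinted, small-RNA host, nuclear and developmental lincRNAs, 35 were members, of which 4 were called in at least 1 comparison and 31 in none, where 5.46% of all windows were called. Small nucleolar RNA hosts were low, with Snhg5 at 0.571% or less and Snhg12 highest at 11.5% to 15.2%. Dleu2, the host of a microRNA pair, stayed at 0.549% or less, Pvt1, the neighbour of Myc, between 1.73% and 3.77%, and Miat between 4.17% and 6.16%. Oip5os1 (1700020I14Rik in the files), a conserved transcript also called Cyrano, was at 0.623% or less. Mir155, the precursor gene of the immune microRNA miR-155, was methylated at 83.1% to 91.4% with 5 CpGs, and the cardiac transcript Carmn (Gm16908) at 81.3% to 92.7%.

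The developmental and growth list, drawn up with earlier results of these data known, held 16 members. Of these, 3 were called higher at P21 in ISCs and 3 in differentiated cells, with none lower. Of all windows 1.05% and 0.879% were called higher. The genes were Gm16880, Gm16197 and C430002E04Rik in ISCs and Gm16880, Gm16197 and Gm11019 in differentiated cells, and are described below. Of the 16, 6 stayed between 30% and 70% in all libraries. Of all windows at 30% to 70% in the P0 library of the other population, 12.9% were called in ISCs and 12.3% in differentiated cells, in either direction. The 16 were not compared with windows of like level. Of the other Platr genes, C330046G13Rik (Platr7) was at 87.3% to 93.2%, Gm13939 (Platr8) at 85.1% to 95.1%, 4930500J02Rik (Platr14) at 74.5% to 78.1% and 2410114N07Rik (Platr9) at 63.6% to 83.6%. In 2410114N07Rik, which was not called, 6 of 8 CpGs were lower at P21 in ISCs and 7 of 8 in differentiated cells. Rmst and Sox2ot, transcripts of the neural lineage, were intermediate at 43.4% to 52.9% and 50% to 63.9%. Morrbid (Gm14005), a regulator of myeloid cell survival, was at 45.1% in ISC P0, 51.8% in differentiated P0, 59.3% in ISC P21 and 64.4% in differentiated P21, under the limit of the call in both populations.

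Imprinted lincRNAs supplied several of the intermediate promoters. Meg3, expressed from the maternal allele, was at 45.6% in ISC P0, 52.3% in differentiated P0, 49.8% in ISC P21 and 49.9% in differentiated P21. Nespas, the antisense transcript of the Gnas locus, was at 44.2%, 48.4%, 46.3% and 52.9% in the same order. Airn, the antisense transcript that silences Igf2r on the paternal allele, was at 67.5%, 53.1%, 54.6% and 55.9%, so that ISC P0 stood above the other 3 libraries. Its difference of 12.9 points between ISC P0 and ISC P21 was under the limit of 15 points, although the libraries differed (adjusted p = 1.36e-04, Fisher's exact test), and 28 of 33 single CpGs were lower at P21. Rian and Mirg, from the same imprinted domain as Meg3, were higher, at 75.9% to 85.7% and 76.1% to 82.0%. None of these 5 promoters was called in any comparison.

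The first question of the design was how methylation differs between P0 and P21 within ISCs. A promoter was called when Fisher's exact test of methylated against unmethylated calls gave an adjusted p below 0.05 over all 31984 windows and the levels differed by more than 15 points. Of the 541 lincRNA promoters 16 (2.96%) were higher at P21 and 8 (1.48%) lower, whereas 1.05% of all windows were higher and 1.61% lower. The median difference was 0.40 points over the lincRNA promoters and 0.04 over all windows, and 375 (69.3%) differed by less than 5 points. Fisher's test counts every call as independent although 1 read covers several CpGs. When the calls of a window were divided by its CpGs before the test, no lincRNA promoter was called in any of the 4 comparisons, and at most 15 of all windows were. That division leaves a window about as many calls as a single CpG has. So few calls can hardly give a call, and the setting cannot tell how far the calls depend on independence.

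The second question was the same in differentiated cells. There 14 lincRNA promoters were higher at P21 and 14 lower, with 0.879% of all windows higher and 1.66% lower. The median difference was 0.17 points, and 394 promoters (72.8%) differed by less than 5 points. In all, 41 lincRNA promoters were called with age, 13 in ISCs alone, 17 in differentiated cells alone and 11 in both, and 4.1% of all windows (1312) were called with age, 349 of them in the same direction in both. Gains in ISCs were in promoters of 10 to 19 CpGs (8, or 4.37% of that class, against 1.86% of all windows in it) and of 20 to 39 CpGs (8, or 5.44%, against 1.88%). In differentiated cells, promoters of 10 to 19 CpGs had 3 gains and 8 losses. Those are 1.64% and 4.37% of that class, against 1.25% and 3.28% of all windows in it. Promoters of 20 to 39 CpGs had 9 gains and 4 losses there (6.12% and 2.72%, against 1.86% and 1.08%). None of the 41 had 40 or more CpGs, a class in which 0.218% of all windows were called higher and 0.0404% lower in ISCs.

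The 2 age comparisons share no library, but both populations were sorted from pooled animals of the same ages and may come from the same animals, so they are not independent. Of the 16 promoters called higher at P21 in ISCs, 15 were also higher in differentiated cells and 5 were called there, and all 8 called lower were also lower, 6 of them called. For all windows these shares were 84.8% of gains and 89.7% of losses on the same side. None of the 541 was called in opposite directions, and of all 31984 windows only 1 was. The Pearson correlation between both sets of age differences was 0.53 across the 541 promoters, against 0.44 over all windows, a description across genomic windows that share 4 libraries and their depth.

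**Figure D3:**
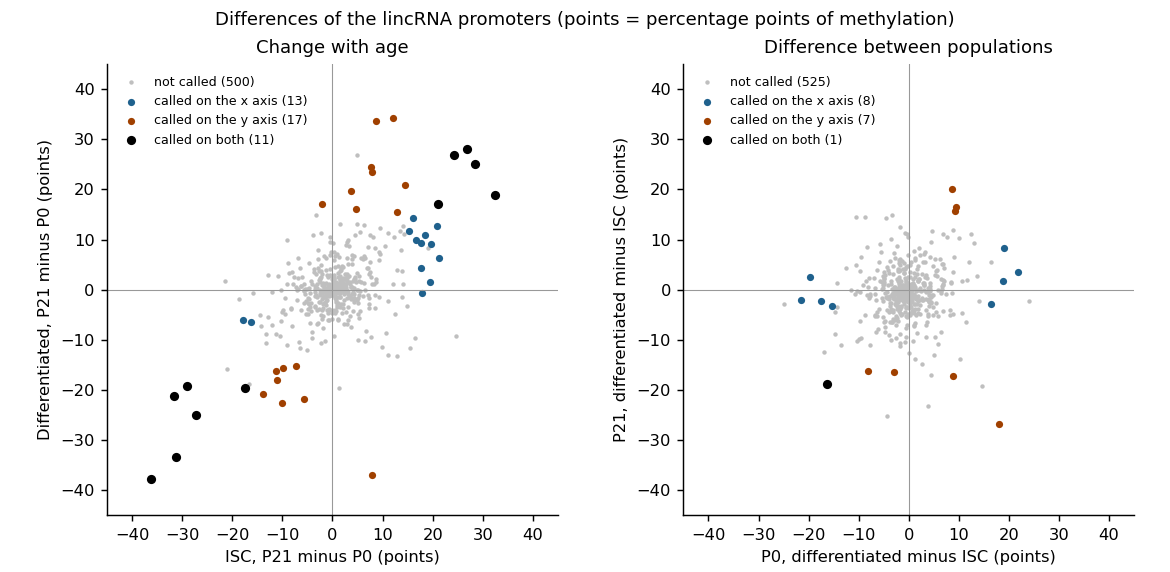
Differences in methylation of the 541 lincRNA promoters in percentage points, with the change from P0 to P21 in ISCs against differentiated cells on the left and the difference between populations at P0 against P21 on the right. The 11 promoters called with age in both populations lie in the same quadrants along the diagonal, whereas 1 promoter was called between populations at both ages.

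The starting level in the other population locates these calls. By their level in differentiated P0, a library the ISC comparison does not use, 17 of 100 lincRNA promoters at 30% to 70% were called in ISCs, as were 5 of 57 at 10% to 30%, 2 of 208 at 70% or more and none of 176 under 10%. In all windows the called shares were 12.9%, 8.41%, 1.83% and 0.114%. Promoters at 30% to 70% had a median difference of 4.32 points in ISCs, against -0.45 points for all windows of that level. In differentiated cells, by the level in ISC P0, 18 of 98 promoters at 30% to 70% were called (18.4%, against 12.3% of all windows), with a median difference of 1.60 points against -0.75. At 10% to 30% the calls were 5 gains in ISCs but 2 gains and 3 losses in differentiated cells.

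In 5 promoters a higher level at P21 was called in both populations, as in 0.325% of all windows. Gm16880 (RefSeq Platr22, from a group of transcripts linked to pluripotency) was at 29.9% in ISC P0, 58.4% in ISC P21, 22.2% in differentiated P0 and 47.2% in differentiated P21. Both P21 libraries exceeded both P0 libraries, by 28.5 points in ISCs (95% interval 23.0 to 33.7, adjusted p = 6.47e-21, Fisher's exact test) and by 25.01 points in differentiated cells (20.8 to 29.1). Of its CpGs with at least 5 calls, 22 of 23 were higher at P21 in ISCs and 20 of 23 in differentiated cells.

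Gm16197 is named Trp53cor1 in RefSeq, the p53-induced lincRNA-p21 that lies 12018 bp from the nearest start of Cdkn1a, a gene for a cell cycle inhibitor. Its 28 CpGs were at 40.4% in ISC P0, 61.4% in ISC P21, 35.7% in differentiated P0 and 52.9% in differentiated P21. The gain was 21.0 points in ISCs (95% interval 16.5 to 25.4, adjusted p = 5.12e-17, Fisher's exact test) and 17.1 points in differentiated cells (13.1 to 21.0), and all 26 comparable CpGs were higher in ISC P21. The CpGs upstream of the start were lower than those downstream in every library, at 18.3% against 48.1% in ISC P0 and 38.7% against 67.9% in ISC P21. Both sides therefore had higher values at P21.

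The window at the 5′ end of the Cdkn1a gene record, with 7 CpGs, was itself higher at P21 in ISCs, at 65.9% against 87.3% (adjusted p = 0.00146, Fisher's exact test), while in differentiated cells it was at 73.4% and 81.6% (adjusted p = 0.178). For each of the 41 lincRNA genes called with age, the coding gene with the nearest transcript start was taken. Its window at the 5′ end of the gene record, which need not hold that start, was read. Of these windows 28 were under 10% in all libraries, where 58.0% of all coding promoters were. Called with age were 2, Cdkn1a and Sparcl1, a share near the 4.1% of all windows called with age. Sparcl1, next to Gm16990 and picked out here after its value had been seen, was at 73.8% in ISC P0 and 89.7% in ISC P21.

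The other 3 promoters called higher at P21 in both populations have start sites inside coding genes on the opposite strand. Gm16661, with its start in an exon of the splicing regulator gene Mbnl2, was at 48.1% in ISC P0, 72.4% in ISC P21, 50.9% in differentiated P0 and 77.8% in differentiated P21. 2610020F03Rik, in an intron of the kinase gene Map3k13, was at 45.6%, 78.1%, 54.4% and 73.3% in the same order, the largest gain among the ISC calls at 32.5 points (95% interval 25.04 to 39.5). Gm10532, in an intron of Ctif, was at 59.6%, 86.4%, 58.1% and 86.2%. In each, both P21 libraries were above both P0 libraries.

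In 6 promoters a lower level at P21 was called in both populations, as in 0.766% of all windows. Gm13684, inside Itgav, was at 65.0% in ISC P0, 28.8% in ISC P21, 68.0% in differentiated P0 and 30.1% in differentiated P21. The loss was 36.2 points in ISCs (95% interval 27.8 to 43.9, adjusted p = 5.45e-14, Fisher's exact test) and 37.9 points in differentiated cells (30.2 to 44.9), the largest in each. All 17 comparable CpGs were lower in ISC P21. Gm17603 was at 70.3%, 38.95%, 72.3% and 38.9% in the same order of libraries.

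Gm17531 was at 47.1% in ISC P0, 19.8% in ISC P21, 41.1% in differentiated P0 and 16.01% in differentiated P21. Gm17272, with 94 to 149 calls per library, was at 56.1%, 24.5%, 47.5% and 26.2%, and its intervals were the widest of the 6. A630075F10Rik, with its start in an exon of Tshz2, was at 49.1%, 20.04%, 38.4% and 19.1%. Hectd2os (1500017E21Rik) was at 41.8%, 24.3%, 44.8% and 25.3%, but around the start of its longest transcript the differences were -2.25 points in ISCs and 2.96 points in differentiated cells, and neither was called. In none of the 6 did a P21 library reach a P0 library. In the last pair the upstream side was the less methylated one, at 18.3% in A630075F10Rik and 18.2% in 1500017E21Rik in ISC P0, and was at 3.34% and 2.58% in ISC P21.

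**Figure D4:**
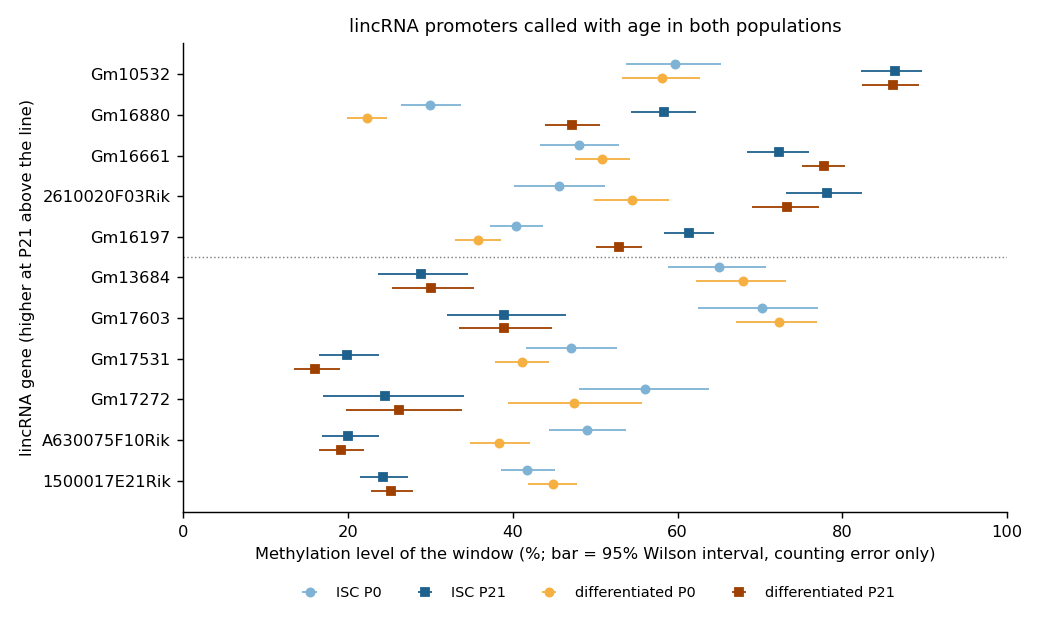
Methylation level (horizontal axis, percent, with 95% Wilson intervals for counting error) of the 11 lincRNA promoters called with age in both populations, in ISC P0, ISC P21, differentiated P0 and differentiated P21. In each promoter both P21 squares lie on one side of both P0 circles, with Gm13684 moving from 65.0% and 68.0% to 28.8% and 30.1%.

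Among promoters called in ISCs alone, the pluripotency-associated Platr4 (C430002E04Rik) was at 37.9% in ISC P0, 57.4% in ISC P21, 49.4% in differentiated P0 and 51.0% in differentiated P21. ISC P0 was thus below the other 3 libraries. 4933427G23Rik was at 31.7%, 52.9%, 38.1% and 44.5%, and Gm17034 at 30.03%, 47.8%, 51.9% and 51.3%. Gm12610, whose nearest coding gene is Cdkn2b at 131598 bp, was the loss with the largest difference here, at 48.4%, 30.5%, 33.2% and 27.1%. With each CpG weighted alike, the differences in C430002E04Rik, 4933427G23Rik and Gm17034 fell below 15 points, to 13.9, 14.7 and 10.1.

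Among promoters called in differentiated cells alone, Lncenc1 (Gm11019), a lincRNA described in embryonic stem cells, was at 34.2% in differentiated P0, 68.0% in differentiated P21, 44.8% in ISC P0 and 53.5% in ISC P21. Its gain in differentiated cells was 33.7 points (95% interval 25.6 to 41.2, adjusted p = 2.68e-13, Fisher's exact test). E230016K23Rik, near the chemokine gene Ccl9, was at 53.5%, 87.8%, 73.2% and 85.3% on 4 CpGs. The overlapping windows of Gm13662 and Gm17250 inside the integrin gene Itga6 were at 57.7% and 58.4% in differentiated P0, 82.1% and 81.8% in differentiated P21, 66.0% and 69.0% in ISC P0, and 73.6% and 76.9% in ISC P21.

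Losses in differentiated cells alone were led by A430010J10Rik, at 75.6% in differentiated P0, 38.6% in differentiated P21, 57.4% in ISC P0 and 65.3% in ISC P21. This window has 4 CpGs and 47 to 90 calls. The CpG 176 bp after the start was at 74.1% on 81 calls in differentiated P0 and 25.5% on 55 calls in differentiated P21, and at 45.2% in ISC P0 and 29.7% in ISC P21. That CpG took most calls in 3 of the libraries, while the other 3 CpGs had 2 to 22 calls each. With each CpG weighted alike the difference was -16.2 points. 6330403N20Rik was at 89.3%, 66.7%, 89.3% and 79.2% in the same order, and its difference of -22.6 points became -12.7 with each CpG weighted alike. BC051077 was at 23.4%, 1.56%, 9.40% and 3.75% in the same order.

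The remaining questions were how differentiated cells differ from ISCs at each age. At P0, 4 lincRNA promoters were higher in differentiated cells and 5 lower, with 0.56% of all windows higher and 0.663% lower. At P21, 3 were higher and 5 lower, with 0.394% and 0.588% of all windows. Over the 541 promoters the median difference between populations was -0.39 points in the P0 libraries and -0.42 in the P21 libraries, against -0.20 and -0.25 for all windows. At P0, 307 promoters were lower in differentiated cells and 234 higher, and at P21 313 were lower and 227 higher, while of the 31984 windows 18387 were lower at P0 and 19091 at P21, a share near that of the lincRNA promoters. The differences at the 2 ages had a Pearson correlation of 0.10 over the 541 promoters and 0.19 over all windows.

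The named promoters at P0 were Gm17034, Gm17256 and Gm16898 on the higher side and Gm16744, E230016K23Rik and Gm16896 on the lower side. Gm17034 was at 30.03% in ISC P0 and 51.9% in differentiated P0, a difference of 21.9 points (95% interval 15.5 to 27.9, adjusted p = 5.15e-09, Fisher's exact test), and at 47.8% and 51.3% at P21. Gm16744 was at 62.6% and 41.2% at P0 and at 60.5% and 58.3% at P21. Neither was called between populations at P21.

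At P21 the higher promoters were Gm4211, Gm17725 and 1700109F18Rik, and the leading lower ones A430010J10Rik, Gm16997 and Gm17414. 1700109F18Rik, named Hoxd3os1 in RefSeq and antisense to Hoxd3, was at 28.1% in ISC P21 and 43.9% in differentiated P21, and at 21.8% and 31.0% at P0. Gm16997 was the 1 promoter called at both ages, as were 0.125% of all windows in the same direction, at 37.9% in ISC P0 against 21.6% in differentiated P0 and 41.5% against 22.8% at P21. It has 66 CpGs and was the richest window among all promoters called.

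The population differences changed when each CpG was weighted alike. In Gm16997, 50 of the 66 CpGs were under 20% methylated over the 4 libraries together, and they took 51.5% of the calls in ISC P0 but 71.6% in differentiated P0. At P0, 20 of 46 single CpGs were higher in differentiated cells and 6 lower, against the direction of the window, and at P21 13 of 63 were higher and 20 lower, in its direction. With each CpG weighted alike the P0 difference was -1.36 points and the P21 difference -4.21. In Gm17034, 4 CpGs under 20% took 40.8% of calls in ISC P0 and 24.9% in differentiated P0, and the difference became 3.98 points. For 1700109F18Rik and Gm17725 the sign turned, from 15.7 and 16.6 points to -1.59 and -7.09.

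The same weighting took a smaller share of the age calls below the limit. All 22 differences of the 11 promoters called with age in both populations stayed over 15 points in their direction, as did 18 of the 30 called with age in 1 population. Of the 17 calls between populations 3 stayed over 15 points, those of Gm12610 and Gm17403 at P0 and of Gm17414 at P21. Among all windows the shares were 87.2%, 60.6% and 32.3%. Only CpGs with at least 3 calls in all 4 libraries entered these means.

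**Figure D5:**
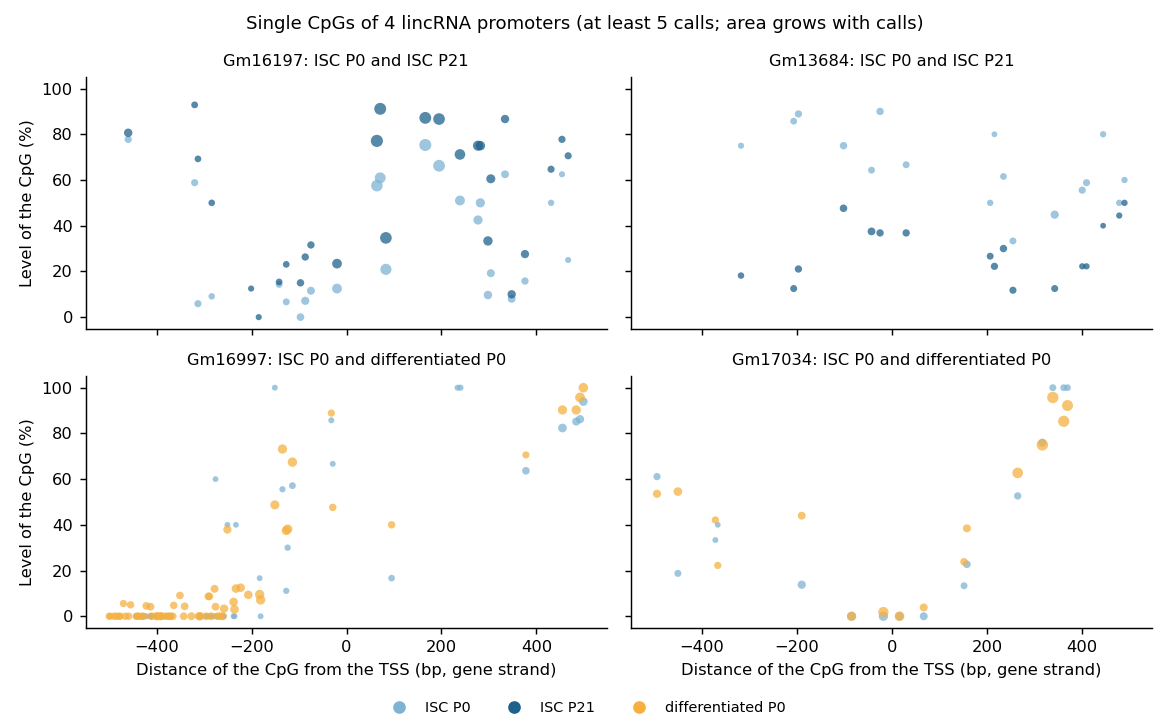
Level of single CpGs (vertical axis, percent) against distance from the TSS (horizontal axis, bp) in 4 lincRNA promoters, with 2 libraries each and the area of a point growing with its calls. In Gm16197 and Gm13684 the P21 points lie above or below the P0 points nearly throughout, whereas in Gm16997 and Gm17034 the points of the 2 libraries are not ordered throughout and differ in where the calls fall.

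Over the 4 libraries the median range between the highest and lowest level was 5.42 points, and 9 promoters had a range over 30 points. In all, 50 of the 541 promoters were called in at least 1 comparison and 491 in none, while 5.46% of all windows were called. Of promoters of the type processed_transcript, 239 of 2322 were called. By CpG number, 8 of 93 lincRNA promoters were called with 3 to 9 CpGs and 21 of 183 with 10 to 19. With 20 to 39 CpGs 20 of 147 were, and with 40 or more 1 of 118. For all windows the counts were 741 of 7333, 696 of 7380, 250 of 4902 and 60 of 12369. Fewer lincRNA promoters than windows in general differed by less than 5 points with age, 69.3% against 76.7% in ISCs and 72.8% against 79.1% in differentiated cells. These shares were not compared at like CpG number. The Pearson correlation of levels across the 541 promoters was 0.98 between ISC P0 and ISC P21 and 0.99 between ISC P0 and differentiated P0.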

How the data were processed

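Per the labels and the study's methods, the authors sequenced bisulfite-converted DNA of 4 sorted colon populations, mapped reads to mm9 with Bismark and Bowtie (versions not given in the sources used here), and deposited per-cytosine files. Each deposited file holds the count of all calls and the count of methylated calls at a position, plus a fraction that equals their ratio within 5e-06. Whether duplicate reads were removed is not stated. Here the counts of both strands of a CpG were summed and the fraction was used only for that check. One satellite-like window took 29.4% to 36.9% of all calls, so depth is given as the median per CpG. No lincRNA promoter exceeded 5338 calls.

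Promoter windows came from GENCODE M1, whose build is that of the files. Level is methylated over all calls. Levels have Wilson intervals and differences Newcombe intervals, both at 95% and for counting error only. Windows were compared by two-sided Fisher's exact test with Benjamini-Hochberg adjustment over 31984 windows. The procedure was run on simulated data in which calls were independent, so that run cannot show the effect of dependence between calls. The age differences of the 2 populations were compared by a two-sided z test of the difference of differences, adjusted alike. With 1 library per group no replicate error exists. Named promoters were the 6 gains and 6 losses with the largest called difference per age comparison, 3 and 3 per population comparison, those called in both age comparisons, members of fixed lists and the 3 richest in CpGs. Members and lists were chosen with earlier results of these data known. Alternatives covered minimum calls and CpGs, window width, size of difference, independence of calls, depth, weighting of CpGs, pile-ups, choice of TSS, distance to coding genes and chromosome X. Python 3.11.15, NumPy 2.4.6, pandas 2.3.3, SciPy 1.17.1, numba 0.67.0 and matplotlib 3.10.9 were used.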

Additional observations from a re-analysis of the deposited data

Results flagged for a closer look

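For 14 lincRNA promoters the change from P0 to P21 differed between differentiated cells and ISCs by more than 15 points with an adjusted p below 0.05 in the z test of the difference of differences over all windows. The same held for 373 of the 31984 windows (1.17%). The values below are the change in differentiated cells minus the change in ISCs, and each rests on 1 library per group. They are over all calls and were not computed with each CpG weighted alike.

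The difference was positive in 5 promoters. It was 25.1 points in Gm11019, where differentiated cells gained 33.7 points and ISCs 8.65. It was 22.2 points in E230016K23Rik, 16.8 in Gm13662 and 15.5 in Gm17250, whose windows overlap. In Airn it was 15.7 points, where the change was -12.9 points in ISCs and 2.82 points in differentiated cells.

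The difference was negative in 9 promoters. It was -44.9 points in A430010J10Rik (4 CpGs), -26.1 points in Gm17414 and -24.1 points in BC065403. It was -18.4 points in Gm17034, -17.8 in C430002E04Rik, -17.5 in 2010300F17Rik, -17.0 in Gm16898, -16.2 in BC051077 and -15.4 in Gm12609. In Gm17414 the changes were 12.8 points in ISCs and -13.3 points in differentiated cells. With each CpG weighted alike, the change in differentiated cells was -16.2 points in A430010J10Rik, against -37.0 over all calls. The ISC changes in Gm17034 and C430002E04Rik became 10.1 and 13.9 points, from 17.8 and 19.5. In BC051077 the change in differentiated cells was -22.6 points, against -21.8 over all calls.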

How the results depend on the processing

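No paired analysis was possible because each group has 1 library, and for the same reason none could be left out. The calls rest on counting error alone. With calls divided by CpGs, a setting that leaves too few calls per window to call most differences, 0 lincRNA promoters were called in each comparison. The main counts were 24, 28, 9 and 8 in the order ISC age, differentiated age, P0 and P21 between populations. A limit of 30 points left 4, 5, 0 and 0, and a limit of 15 points without a test gave 14 at P0. With each CpG weighted alike 3 were called at P0 and 1 at P21. In that setting the adjusted p was still that of the test on all calls, and only the difference was recomputed. Of the 9 main calls at P0, 2 stayed over 15 points. With at least 10 CpGs there were 4 at P0, and with windows of 1000 bp on either side 5 at P21. A distance of 10 kb to coding starts left 348 promoters with 17 calls in differentiated age and 5 at P0. Leaving out windows inside coding genes left 343, with 15, 12 and 5 calls in ISC age, differentiated age and at P0. Settings that leave fewer promoters also leave fewer to be called. These counts were not compared as shares, neither with the main counts nor with all windows.

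The mean level in the order ISC P0, differentiated P0, ISC P21, differentiated P21 was 41.5%, 41.3%, 42.5% and 41.8% with at least 100 calls, 39.2%, 39.1%, 40.2% and 39.5% with at least 10 CpGs, and 40.3%, 40.3%, 41.2% and 40.5% with windows of 250 bp on either side. It was 50.5%, 49.3%, 51.1% and 49.7% with 1000 bp, where the populations differed in mean by -1.21 points (P0) and -1.34 points (P21), and 36.0%, 35.5%, 36.8% and 35.8% outside coding genes. The P21 population difference turned sign in Gm17725 (-3.09 points with 250 bp, -7.09 with CpGs weighted alike), 1700109F18Rik (-1.59 with CpGs weighted alike) and Gm4211 (-5.84 with 1000 bp). In 1500017E21Rik the age difference in differentiated cells was 2.96 points at the start of its longest transcript. Of 47 called differences of named promoters, 45 remained called with libraries thinned to equal depth, 30 with CpGs weighted alike, 28 of 43 with 250 bp and 26 with 1000 bp. Depth limits windows of few CpGs most, as in A430010J10Rik with 47 to 90 calls.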
